A study of Mus musculus with 13 samples.

Results

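Transcripts of 10 human genes of the hypoxia response and of glycolysis were followed in 13 mammary tumours. The members were given as a list of Ensembl transcript IDs, 1 per gene, and all 10 were found among the 244939 transcripts of the deposited tables. In the order of their roles they were HIF1A (ENST00000337138) and EGLN3 (ENST00000250457) of oxygen sensing, CA9 (ENST00000378357) and CA12 (ENST00000178638) of acid export, the secreted ADM (ENST00000278175), and SLC2A1 (ENST00000426263), PGK1 (ENST00000373316), GAPDH (ENST00000229239), LDHA (ENST00000422447) and PDK1 (ENST00000282077) of glucose use. Each value is therefore that of 1 transcript and not of the whole gene. The gene symbols come with the list, since the tables hold IDs only. Other transcripts of the same genes, other genes of the pathway, and markers of tumour, stromal and blood vessel cells could not be matched to IDs and were not analysed here.

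MDA-MB-231, a human cell line from a triple-negative breast cancer, had been injected in Matrigel into a mammary gland of female NSG mice aged 12 to 13 weeks. The labels call these mice immunocompetent, although the NSG strain lacks mature lymphocytes. In both groups the mice were gavaged daily with 40% DMSO and 60% polyethylene glycol. In 1 group that vehicle also carried 30 mg/kg of OCA (obeticholic acid), a synthetic agonist of the bile acid receptor FXR, and tumours were excised after 14 days. There were 7 vehicle and 6 OCA libraries, which held between 34015674 and 50596490 estimated reads each. A library number in the labels, whose meaning is not given, falls into a lower run (3 vehicle, 4 OCA) and an upper run (4 vehicle, 2 OCA), called label series here and treated as a possible batch. Vehicle replicates 2, 3 and 5, all of the upper series, held under 40000000 reads. Vehicle replicates 1 and 4 and OCA replicate 2 stood apart from the other libraries on the first principal component of all tested transcripts. They were also the libraries with the most reads, at 49764198 to 50596490, the next holding 48186645. Results that rest on either set are given with and without it.

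Cells sense oxygen through prolyl hydroxylases such as EGLN3, which mark the HIF-alpha proteins for destruction as long as oxygen is present. When oxygen falls, HIF1A protein persists, pairs with ARNT in the nucleus and switches on genes that raise glucose uptake, drive glycolysis, export acid and recruit blood vessels. Its abundance is controlled largely at the level of the protein, while its targets respond as messenger RNA. Solid tumours outgrow their blood supply, so these targets are commonly read as a mark of hypoxic regions.

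The 10 transcripts covered a wide span of levels, compared here per length in TPM (a length-corrected share of all transcripts). GAPDH, a glycolytic dehydrogenase often used as a reference gene, was highest, with a mean of 2634 TPM ± 340 (SD, n = 13). ADM, which encodes the vasodilator peptide adrenomedullin, followed at 85.9 TPM ± 42.2 (SD, n = 13), and PGK1, a kinase of glycolysis that yields ATP, at 70.6 TPM ± 20 (SD, n = 13). HIF1A itself measured 44.9 TPM ± 7.48 (SD, n = 13). A middle group held CA9 (15.2 TPM), a surface carbonic anhydrase that acidifies the space around the cell, EGLN3 (14.6 TPM) and SLC2A1 (10.1 TPM), the glucose transporter GLUT1. The lowest were CA12 (3.15 TPM), a related surface carbonic anhydrase, LDHA (1.35 TPM), the lactate dehydrogenase subunit, and PDK1 (1.06 TPM), a kinase that inhibits pyruvate dehydrogenase. The listed LDHA transcript held only 11.7 to 274 estimated reads per library, so it cannot stand for the level of that gene.

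In 5 of the 9 steps of this order the mean difference within tumours between neighbours differed from 0 (exact paired permutation tests on log2(TPM + 0.1), two-sided, adjusted over 9 steps, largest adjusted p = 0.00396). In these 5 the higher transcript led in 12 or 13 of 13 tumours. The order itself was set by the mean TPM of the same tumours. The order within 4 neighbouring pairs was not resolved. ADM exceeded PGK1 in 9 of 13 tumours (exact p = 0.345, adjusted p = 0.443), and CA9 exceeded EGLN3 in 8 of 13 (exact p = 0.309, adjusted p = 0.443). EGLN3 exceeded SLC2A1 in 8 of 13 tumours (exact p = 0.636, adjusted p = 0.715). LDHA exceeded PDK1 in 6 of 13 (exact p = 0.840, adjusted p = 0.840).

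**Figure D1:**
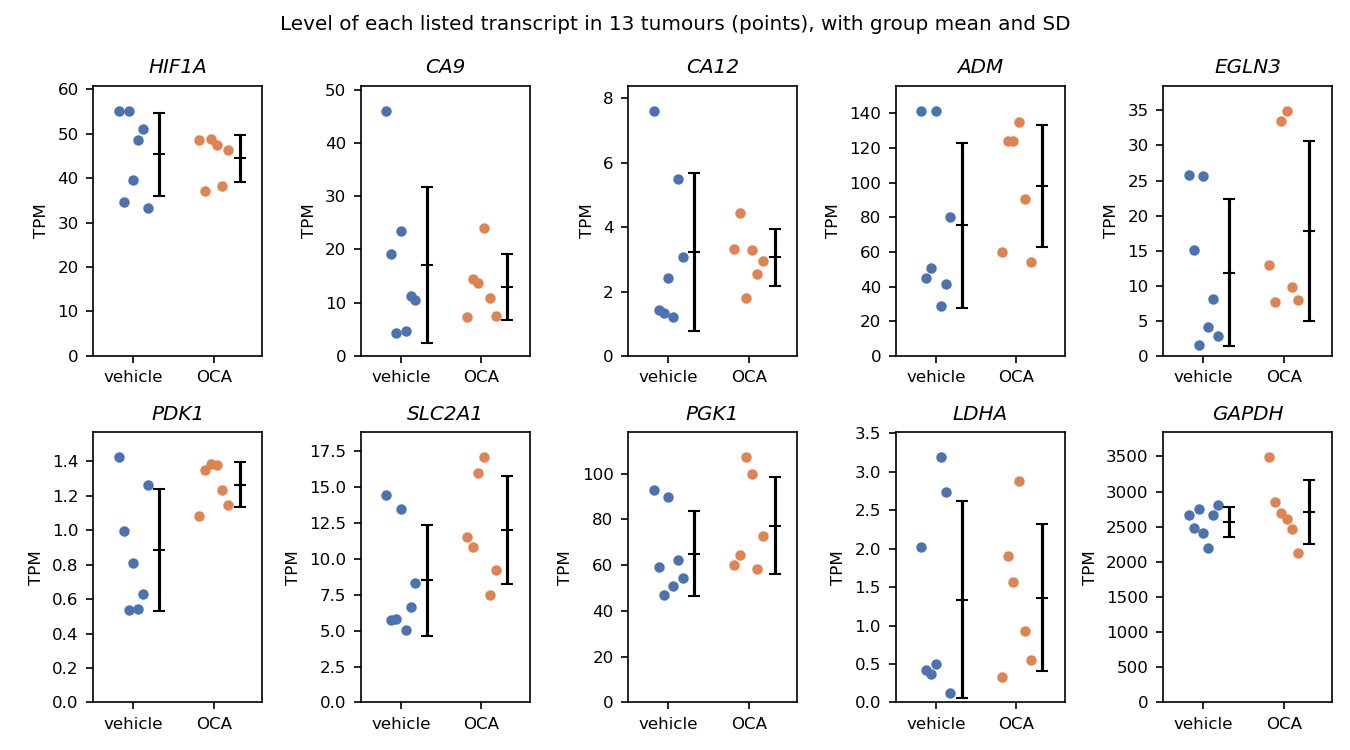
Level of each listed transcript in TPM (vertical axis, from 0) in the vehicle and OCA tumours; each point is 1 tumour, and the black mark beside each group is its mean with 1 SD. The groups overlap for every transcript, and GAPDH and HIF1A vary far less between tumours than CA9, EGLN3 and LDHA.

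The transcripts also differed in how much they varied from tumour to tumour. GAPDH ranged over 1.65-fold and HIF1A over 1.66-fold between the lowest and highest of the 13 tumours. PGK1 ranged over 2.29-fold, PDK1 over 2.66-fold and SLC2A1 over 3.41-fold. ADM ranged over 4.96-fold, CA12 over 6.25-fold, CA9 over 10.7-fold and EGLN3 over 22.3-fold. The low-count LDHA transcript ranged over 25.2-fold. Among 14710 transcripts averaging 10 CPM or more (CPM being counts scaled to library size), the median within-group SD of log2 CPM was 0.26. GAPDH, at an SD of 0.19, varied less than that median, and HIF1A, at 0.27, lay close to it. EGLN3 (SD 1.34), CA9 (0.99), CA12 (0.82) and ADM (0.75) varied more than 94.8% or more of these transcripts. SLC2A1 (SD 0.53), PDK1 (0.41) and PGK1 (0.37) varied more than 89.2%, 80.4% and 75.4% of them.

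The comparison of OCA with vehicle asks whether dosing with an FXR activator altered these transcripts in tumours. None of the 10 passed the test, although 6 estimates lay above 0 and 4 below. By edgeR's quasi-likelihood test 0 of 10 had an adjusted p under 0.05, and the adjusted p of each was 1. The background was the same, with 0% of 74973 tested transcripts called. All 10 passed the filter on low counts. At an unadjusted p under 0.05 there was 1 member, PDK1, higher in OCA, against 2.77% of all tested transcripts in either direction and 1.37% higher and 1.4% lower. A count of 1 is no result about the list. DESeq2 without a filter called 0 of the 10, against 410 of 163074 transcripts (0.251%), and gave PDK1 alone of the 10 an unadjusted p under 0.05, against 3.05% of transcripts. By limma-voom 0 of the 10 were called, as of all transcripts (0%), and PDK1 alone of the 10 had an unadjusted p under 0.05, against 4.94% of transcripts, or 3.06% higher in OCA. The median log2 fold change was 0.12 over the 10 and 0.01 over all tested transcripts. No member had groups that did not overlap in TPM, while 0.123% of all tested transcripts had groups without overlap in CPM. In bulk tissue, fewer cells that carry a transcript and less of it per cell cannot be told apart.

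Of the oxygen-sensing pair, HIF1A lay at a lowest, median and highest of 33.2, 48.5 and 55.2 TPM in vehicle tumours and 37.1, 46.9 and 48.7 TPM in OCA tumours. The OCA values fell inside the vehicle range. The log2 fold change of OCA over vehicle was -0.07 (SE 0.14, 95% interval -0.38 to 0.24). On the fold scale that interval runs from 0.768 to 1.18. EGLN3, the hydroxylase gene that HIF itself switches on, lay at 1.57, 8.18 and 25.8 TPM in vehicle and 7.70, 11.4 and 35.0 TPM in OCA tumours. OCA replicates 3 and 4 lay above every vehicle tumour, and vehicle replicates 3, 5 and 7 lay below every OCA tumour. Its log2 fold change was 0.55 (SE 0.65, 95% interval -0.86 to 1.95), which reaches a 3.86-fold rise.

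Of the carbonic anhydrases, CA9 lay at 4.33, 11.2 and 46.1 TPM in vehicle and 7.37, 12.3 and 24.0 TPM in OCA tumours. The median was slightly higher in OCA while the mean was lower, 13.0 TPM ± 6.16 (SD, n = 6) against 17.1 TPM ± 14.6 (SD, n = 7). That mean rests on vehicle replicate 1, the highest tumour. Its log2 fold change was -0.42 (SE 0.51) and 0.05 without that replicate. CA12 lay at 1.22, 2.42 and 7.62 TPM in vehicle and 1.81, 3.13 and 4.45 TPM in OCA tumours, again with vehicle replicate 1 highest. Its log2 fold change was -0.11 (SE 0.43) and 0.25 without that replicate. It was also above 0 without vehicle replicate 6 (0.09) or OCA replicate 3 (0.02), so neither sign was resolved.

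ADM, the secreted vasodilator, lay at 28.6, 50.9 and 142 TPM in vehicle and 54.1, 107 and 135 TPM in OCA tumours. All 6 OCA tumours lay above the vehicle median, but vehicle replicates 1 and 4 were the highest of the 13. The log2 fold change was 0.35 (SE 0.38, 95% interval -0.48 to 1.17).

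Of the genes of glucose use, SLC2A1 lay at 5.01, 6.62 and 14.5 TPM in vehicle and 7.5, 11.2 and 17.1 TPM in OCA tumours. All 6 OCA tumours lay above the vehicle median and 2 lay above every vehicle tumour, with a log2 fold change of 0.47 (SE 0.28, 95% interval -0.13 to 1.07). PGK1 lay at 46.7, 59.1 and 92.7 TPM in vehicle and 58.5, 68.7 and 107 TPM in OCA tumours. OCA replicates 3 and 4 lay above every vehicle tumour. Its log2 fold change was 0.21 (SE 0.20, 95% interval -0.21 to 0.63). GAPDH lay at 2198, 2664 and 2809 TPM in vehicle and 2119, 2658 and 3492 TPM in OCA tumours, with OCA tumours at both ends of the range. Its log2 fold change was 0.04 (SE 0.10, 95% interval -0.18 to 0.26). The LDHA transcript lay at 0.127, 0.50 and 3.19 TPM in vehicle and 0.337, 1.25 and 2.88 TPM in OCA tumours, and its log2 fold change was -0.03 (SE 0.73). The 95% interval for LDHA runs from -1.60 to 1.54, from 0.329-fold to 2.92-fold, so the direction of that transcript was not resolved at this depth.

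PDK1, the pyruvate dehydrogenase kinase, ranked first of the 10 by p. It lay at 0.535, 0.809 and 1.43 TPM in vehicle and 1.08, 1.29 and 1.39 TPM in OCA tumours. Vehicle replicates 2 to 6 lay below every OCA tumour, while vehicle replicates 1 and 7 lay within or above the OCA range. The log2 fold change was 0.48 (SE 0.22, 95% interval 0.02 to 0.95), and the edgeR p ranked 1795 of 74973 transcripts. The OCA tumours lay close together, with a coefficient of variation of 10.3% against 40.2% in vehicle tumours. This transcript is long, 14072 bases, and long transcripts, those of 4000 bases and above, held 27.1% to 29.2% of reads under OCA and 25.8% to 27.6% under vehicle. With that share as a covariate the log2 fold change was 0.27 (SE 0.32). Without vehicle replicate 3, 5 or 6, or without OCA replicate 2, 3, 4 or 5, no member had an unadjusted p under 0.05. Without vehicle replicate 1 both PDK1 (log2 fold change 0.63, SE 0.19) and SLC2A1 (0.64, SE 0.26) did, against 2287 of 72783 transcripts. Without vehicle replicate 4, SLC2A1 did and PDK1 did not, against 2217 of 72828 transcripts.

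The estimates changed with the set of tumours compared. Without vehicle replicates 1 and 4 and OCA replicate 2, the log2 fold changes were 0.91 for SLC2A1, 0.87 for ADM, 1.59 for EGLN3, 0.61 for PDK1 and 0.49 for PGK1. These 5 members then had an unadjusted edgeR p under 0.05, all higher in OCA, against 3.4% of tested transcripts in either direction and 1.78% in that direction, and 0 of 10 had an adjusted p under 0.05. Several pairs of these 5 transcripts are correlated across tumours, so they are not 5 separate observations. Without the vehicle tumours of low total reads (replicates 2, 3 and 5) the same 5 estimates were 0.15, -0.06, 0.16, 0.28 and 0.02, and 0 of 10 had an unadjusted p under 0.05. The first set removes the 2 vehicle tumours with the highest ADM and SLC2A1 levels, together with the OCA tumour lowest in EGLN3, and the second removes the 3 vehicle tumours with the lowest SLC2A1 levels. Without OCA replicate 2 alone the EGLN3 estimate was 0.70.

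Within the label series the estimates were imprecise. PDK1 measured 0.47 (SE 0.23) in the lower and 0.50 (SE 0.42) in the upper series on the log2 scale. SLC2A1 measured 0.42 (SE 0.35) and 0.35 (SE 0.45), PGK1 0.20 (SE 0.29) and 0.12 (SE 0.27), and ADM 0.19 (SE 0.44) and 0.41 (SE 0.67). EGLN3 had opposite signs, at 0.85 (SE 0.80) and -0.58 (SE 1.03), as did CA12 at -0.46 (SE 0.35) and 0.34 (SE 0.84). An edgeR test of the difference between the series passed for 0 of the 10, with 0.274 as the smallest unadjusted p, against 0.008% of all transcripts called at an adjusted p under 0.05 and 3.93% at an unadjusted p under 0.05. Without vehicle replicate 1 the CA12 difference, upper minus lower series, went from 0.80 (SE 0.93) to 1.90 (SE 0.49) on the log2 scale. Its adjusted edgeR p was 0.874. Its unadjusted p was then under 0.05, alone of the 10, against 3390 of 72783 transcripts in that fit. The vehicle tumours then left in the upper series, replicates 2, 3 and 5, are the libraries under 40000000 reads. They held the lowest CA12 levels of all tumours, at 1.22 to 1.42 TPM. A difference between series therefore cannot be told apart there from a relation with low library totals.

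**Figure D2:**
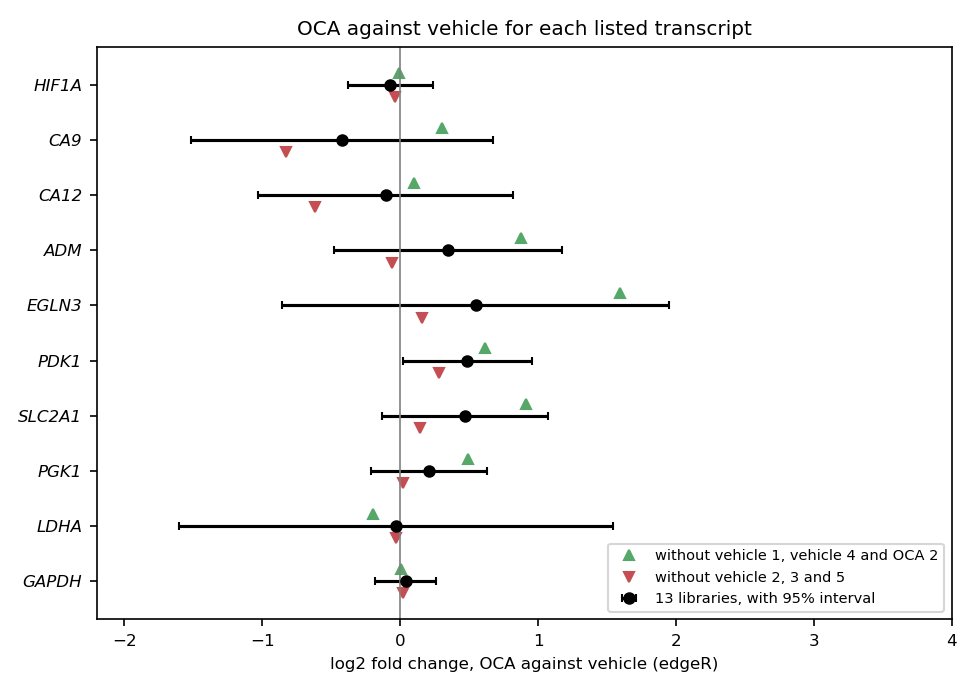
Log2 fold change of OCA over vehicle from edgeR for each listed transcript (horizontal axis); black points with bars are estimates over 13 libraries with 95% intervals, upward triangles leave out vehicle replicates 1 and 4 and OCA replicate 2, and downward triangles leave out vehicle replicates 2, 3 and 5. The triangles move apart most for EGLN3, CA9 and ADM and hardly at all for HIF1A and GAPDH.

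Across the tumours, several targets of HIF were correlated with each other, and no correlation of HIF1A passed the threshold. CA9, ADM, EGLN3, PDK1, SLC2A1 and PGK1 were each correlated with at least 1 other listed transcript, whereas HIF1A, CA12, LDHA and GAPDH were correlated with none past the threshold. Of the 45 pairs, 9 passed by Pearson's r of log2 CPM over 13 tumours (two-sided permutation tests, adjusted over 45 pairs), all with r above 0, and 9 passed by Spearman's rho, of which 8 passed by both. An r of at least 0.7 was found in 8 of the 45 pairs, against 1.2% of all pairs among the transcripts averaging 10 CPM or more. Those 6 transcripts were grouped after their values were seen, as the ones with a passing pair, so all 9 passing pairs lie among them by definition. The 15 pairs among the 6 had r from 0.52 to 0.88 with a median of 0.71, and the other 30 pairs had r from -0.42 to 0.54 with a median of 0.15. That contrast follows in part from the same choice and is not a test.

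**Figure D3:**
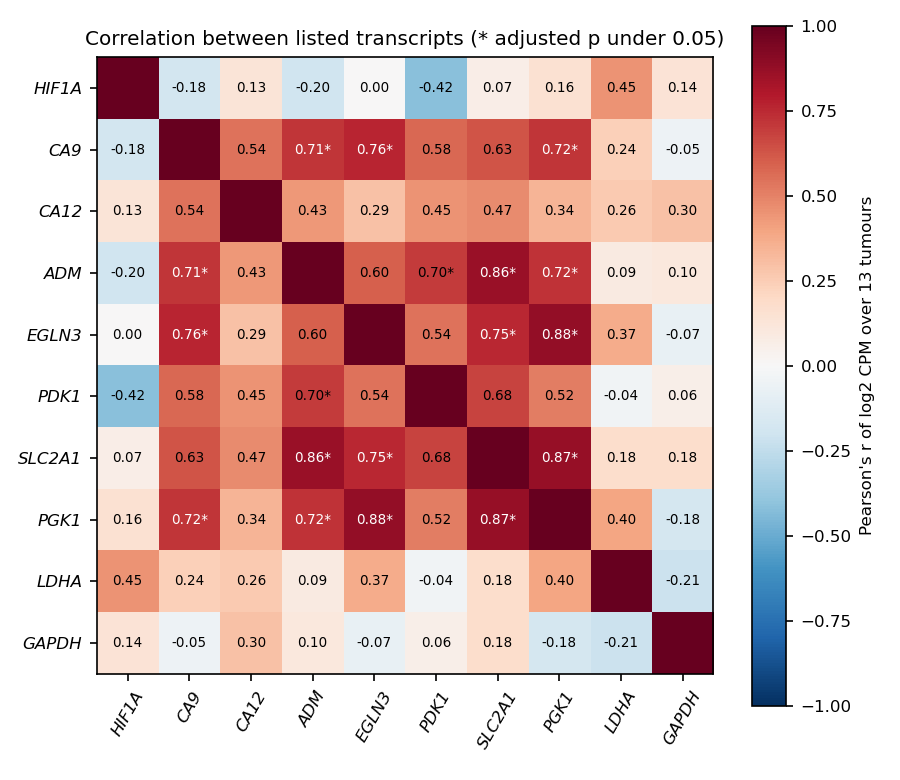
Pearson's r of log2 CPM over 13 tumours for each pair of listed transcripts, as colour and number, with an asterisk where the permutation p adjusted over 45 pairs is under 0.05. The asterisks fall among CA9, ADM, EGLN3, PDK1, SLC2A1 and PGK1, and the HIF1A and GAPDH rows hold none.

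The highest correlation was that of EGLN3 with PGK1, at r = 0.88 (permutation p = 6e-05, adjusted p = 0.0027) and rho = 0.82 (adjusted p = 0.0145). SLC2A1 with PGK1, the pair of the glucose transporter and a glycolytic enzyme, followed at r = 0.87 (adjusted permutation p = 0.00405) and rho = 0.85 (adjusted p = 0.0117). ADM with SLC2A1 had r = 0.86 (adjusted permutation p = 0.0066) and rho = 0.85 (adjusted p = 0.0117). Without the 2 tumours farthest from the median of the first-named transcript, r in these 3 pairs was 0.84, 0.83 and 0.81. These 3 pairs also passed in each of the 13 fits that leave out 1 tumour.

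The other 6 passing pairs lay closer to the threshold. They were CA9 with EGLN3 (r = 0.76), EGLN3 with SLC2A1 (0.75), ADM with PGK1 (0.72), CA9 with PGK1 (0.72), CA9 with ADM (0.71) and ADM with PDK1 (0.70), with adjusted permutation p from 0.0258 to 0.0445. ADM with PGK1 missed the threshold by rho (rho = 0.63, adjusted permutation p = 0.107), and PDK1 with SLC2A1 missed it by r (0.68, adjusted permutation p = 0.06) but passed by rho (0.74, adjusted p = 0.0457). These 6 pairs passed in 3 to 10 of the 13 fits that leave out 1 tumour. The count of 9 passing pairs became 3 without vehicle replicate 3, vehicle replicate 5 or OCA replicate 4, 4 without vehicle replicate 1 or OCA replicate 1, and 5 without OCA replicate 3. Without the 2 tumours farthest from the median, their r was 0.61 to 0.76.

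After centring on the group means, r was 0.87 for EGLN3 with PGK1, 0.87 for SLC2A1 with PGK1 and 0.84 for ADM with SLC2A1. Within the 7 vehicle tumours, r was 0.90 for EGLN3 with PGK1, 0.90 for SLC2A1 with PGK1 and 0.97 for ADM with SLC2A1, and within the 6 OCA tumours it was 0.86, 0.84 and 0.55. Within the lower label series (n = 7) the same pairs had r of 0.91, 0.85 and 0.75, and within the upper series (n = 6) 0.83, 0.89 and 0.92. With so few tumours 0 of 45 pairs passed the adjusted threshold within either treatment group or the lower series, and 3 passed in the upper series. Those 3 are counted over all 45 pairs, and EGLN3 with PGK1 was not among them. Over the 10 tumours without vehicle replicates 1 and 4 and OCA replicate 2, EGLN3 with PGK1, SLC2A1 with PGK1 and ADM with SLC2A1 had r of 0.85, 0.85 and 0.83, and 3 pairs passed. In the lower series CA12 had r of -0.75 (ADM) to -0.18 (CA9) with CA9, ADM, EGLN3, PDK1, SLC2A1 and PGK1. In the upper series the same 6 values ran from 0.64 (EGLN3) to 0.99 (SLC2A1). LDHA, from few reads, had r of 0.50 (EGLN3) to 0.98 (PDK1) with those 6 within OCA tumours. Within vehicle tumours its r ran from -0.33 (PDK1) to 0.29 (EGLN3).

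HIF1A, whose protein drives these genes, was at r = -0.18 with CA9, -0.20 with ADM, 0.00 with EGLN3, -0.42 with PDK1, 0.07 with SLC2A1 and 0.16 with PGK1 (smallest adjusted permutation p = 0.331 among these 6). The 3 highest HIF1A levels were in vehicle replicates 1, 3 and 6. Vehicle replicate 1 ranked 1 in CA9 and 2 in ADM, while vehicle replicate 3, the highest in HIF1A at 55.2 TPM, was the lowest of the 13 in CA9, EGLN3, PDK1 and PGK1. GAPDH, the reference gene among the glycolytic members, had r of -0.18 with PGK1 and 0.18 with SLC2A1 (adjusted permutation p = 0.768 for each). LDHA had r of 0.40 with PGK1 (adjusted permutation p = 0.361), from few reads. A p that misses the threshold with 13 tumours does not show that transcripts vary independently.

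**Figure D4:**
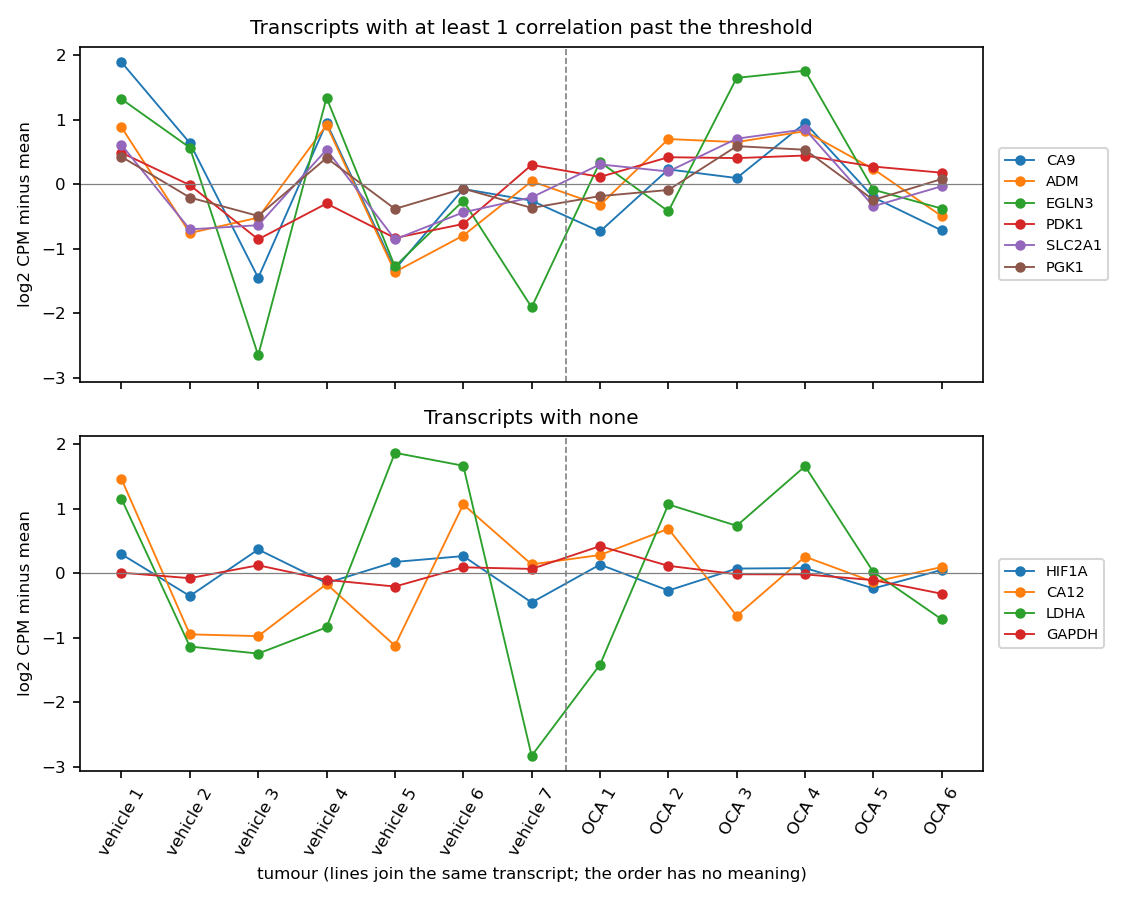
Log2 CPM minus the mean of each transcript (vertical axis) in each of the 13 tumours (horizontal axis, vehicle left of the dashed line), with lines joining the values of 1 transcript. In the upper panel vehicle replicates 1 and 4 and OCA replicates 3 and 4 lie above 0, except for PDK1 in vehicle replicate 4, and vehicle replicates 3 and 5 lie below 0; in the lower panel HIF1A and GAPDH stay near 0.

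By tumour, the ranks of these transcripts were as follows. OCA replicate 4 ranked 1 in EGLN3 and SLC2A1, 2 in CA9 and PGK1 and 3 in ADM. OCA replicate 3 ranked 1 in PGK1 and 2 in EGLN3, SLC2A1 and PDK1. Vehicle replicate 1 ranked 1 in CA9, CA12 and PDK1. At the other end, vehicle replicate 5 ranked 13 of 13 in ADM, SLC2A1 and CA12, and vehicle replicate 3 ranked 13 of 13 in CA9, EGLN3, PDK1 and PGK1. Both groups therefore held tumours with high levels of these transcripts. The lowest value of each of CA9, CA12, ADM, EGLN3, PDK1, SLC2A1 and PGK1 was in vehicle replicate 3 or 5, both libraries under 40000000 reads. HIF1A and LDHA were lowest in vehicle replicate 7, and GAPDH was lowest in OCA replicate 6.

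Library totals were compared with the members, and none of the relations passed after adjustment. The libraries under 40000000 reads had SLC2A1 at 5.01 to 5.81 TPM and ADM at 28.6 to 50.9 TPM, against 6.62 to 14.5 TPM and 41.7 to 142 TPM in the other vehicle libraries. Since the totals fall into 2 clusters, r was computed over the 10 libraries above that limit only. The 10 include vehicle replicates 1 and 4 and OCA replicate 2, which hold the most reads and stood apart on component 1. Whether a relation is with totals or with component 1 was not tested. There log2 total reads had r = 0.70 with CA9 (permutation p = 0.0230, rho = 0.81, p = 0.00727) and r = 0.70 with ADM (permutation p = 0.0260, rho = 0.78, p = 0.0107), and neither passed after adjustment over 20 relations of members with library measures (adjusted permutation p = 0.186 for each r and 0.107 for each rho). Vehicle replicates 1 and 4 stayed in when the 2 libraries farthest from the median total, OCA replicates 2 and 6, were left out. Without those 2, r was 0.78 for CA9 and 0.60 for ADM. With HIF1A r was 0.16 (permutation p = 0.664). Without those 2 libraries r was also 0.84 for EGLN3, 0.76 for PGK1, 0.68 for SLC2A1 and 0.58 for HIF1A. Within the lower series, all above the limit, r was 0.86 for EGLN3, 0.75 for PGK1, 0.67 for CA9, 0.65 for SLC2A1, 0.52 for ADM and 0.45 for HIF1A, and the upper series held 3 such libraries, too few for a value. The other measure, the share of reads on long transcripts, had its highest r with PDK1, at 0.61 (permutation p = 0.0279, adjusted p = 0.186). Without its 2 farthest libraries that r was 0.65. By rho PDK1 was at 0.48 (permutation p = 0.101), and SLC2A1 was the highest member, at 0.53 (permutation p = 0.0675). Of the 9 passing pairs, 2 still passed after regression on log2 total reads, with r of 0.84 for EGLN3 with PGK1 and 0.81 for SLC2A1 with PGK1, and r of ADM with SLC2A1 was 0.62. Over the 10 libraries above the limit these 3 pairs had r of 0.90, 0.85 and 0.74, and 1 of 45 pairs passed. Beyond these values, the part of library totals in the correlations was not tested.

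**Figure D5:**
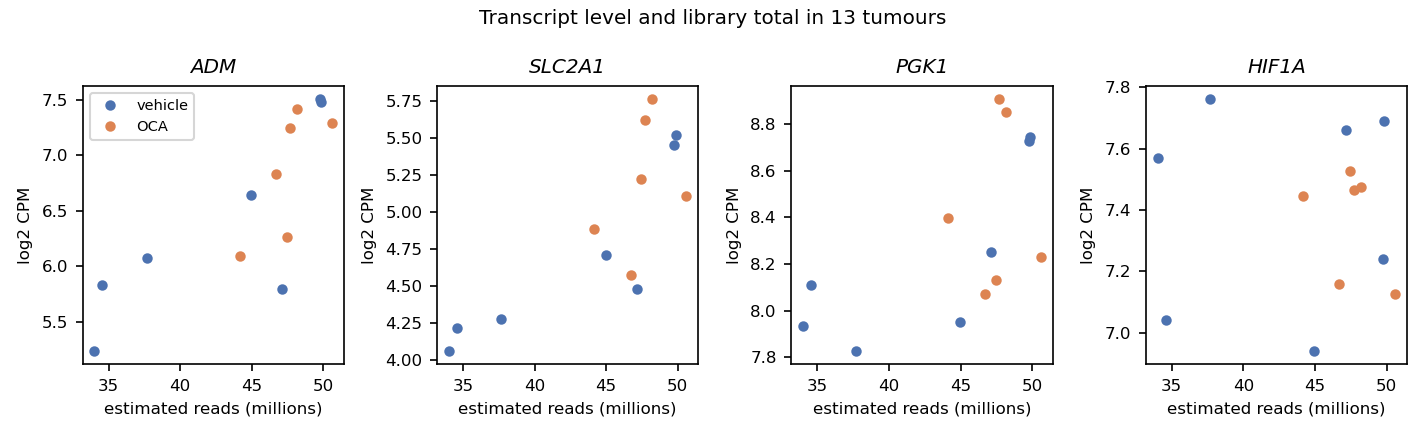
Log2 CPM of ADM, SLC2A1, PGK1 and HIF1A (vertical axes) against the estimated reads of each library (horizontal axes, scaled as labelled), 1 point per tumour, coloured by group. The 3 libraries with the fewest reads are all vehicle, lie below all others in SLC2A1 and are spread from low to high in HIF1A.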

How the data were processed

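The authors deposited 1 table per tumour with, per the file headers, the TPM, the estimated count and 2 lengths of every transcript. Build GRCh38.p14, Salmon, STAR, FastQC and DESeq2 are listed in the submitters' processing notes. Their versions, the annotation and the handling of mouse reads are not given in the sources used here. By the labels' protocols, RNA had an integrity number above 6, and reads were paired, of 150 bases. Estimated counts share reads among the transcripts of a gene, so the spread between libraries holds assignment error too. Deposited TPM values were used for levels, the tests of their order and the overlap of groups. Since TPM keeps no depth, it entered the comparison of OCA with vehicle and the correlations only in alternatives (pseudocounts 0.1 and 1).

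Here, estimated counts were rounded, filtered by filterByExpr (minimum count 10, minimum total 15), scaled by TMM and tested by edgeR 4.0.16 (robust quasi-likelihood F test, R 4.3.3) with Benjamini-Hochberg adjustment over 74973 transcripts and a threshold of 0.05. SE is the log2 fold change divided by the square root of F. DESeq2 1.42.0, limma 3.58.1 and sva 3.50.0 served in alternatives. Correlations used log2 CPM (prior count 2) and 100000 permutations, or all orders for up to 7 tumours. The fits were tested on simulated data. Replicates are numbered in accession order, and libraries were taken as separate animals. All 10 listed transcripts are named. The members, the lists and the sets of libraries left out were chosen with earlier results of these data known.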

Additional observations from a re-analysis of the deposited data

Results flagged for a closer look

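Dixon's ratio exceeded its 95% limit in 0 of 20 tests (10 transcripts, 2 groups), where chance gives about 1. The highest CA9 values came nearest, with vehicle replicate 1 at 46.1 TPM and a gap of 0.540 of the range against a limit of 0.568. For none of the 10 transcripts did the OCA effect differ between the label series past the adjusted threshold by edgeR.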

How the results depend on the processing

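No paired analysis was run, since the labels pair no vehicle tumour with an OCA tumour, and replicate numbers only follow accession order. The count of 0 members past the adjusted threshold held in all 32 alternatives. The 1 member at an unadjusted p under 0.05 became 0 with library totals only, limma-trend on TPM (either pseudocount), label series, long-transcript share or total reads as a covariate, within either label series and without the 3 vehicle libraries under 40000000 reads. It became 2 with 1 surrogate variable (against 2430 of 74973 transcripts) and 5 without the 3 libraries apart on component 1 (against 2495 of 73488). With each library left out it was 0 to 2, with 2 without vehicle replicate 1 (against 2287 of 72783 transcripts). Transcripts past the threshold became 410 with DESeq2 unfiltered, 12 filtered and 1 with limma-trend on log2(TPM + 0.1). They became 1 without the 3 libraries apart, and 0 to 1 with each library left out. In the test of a difference between label series, leaving out OCA replicate 2 or 6 leaves 1 OCA library in the upper series. The counts given next for those fits rest on that library and are not read as a difference between series. For the difference between label series, 6 transcripts became 0 with limma-voom and 3 to 481 with each library left out, with 85 without OCA replicate 2 and 481 without OCA replicate 6.

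PDK1, SLC2A1 and PGK1 kept a log2 fold change above 0 in all 33 alternatives (0.27 to 0.63, 0.15 to 0.91, and 0.0023 to 0.49). The other signs turned as follows. CA12 turned to 0.11 with limma-voom, 0.19 and 0.10 with limma-trend (pseudocounts 0.1 and 1), 0.041 with the long-transcript share, 0.0016 with the surrogate variable, 0.34 in the upper series, 0.10 without the 3 libraries apart and 0.14 relative to GAPDH. LDHA turned to 0.46, 0.35 and 0.10 under the first 3 of these, 0.014 with label series, 0.52 with the long-transcript share, 0.27 in the lower series and 0.36 relative to GAPDH. With the long-transcript share HIF1A was 0.014, EGLN3 -0.22 and GAPDH -0.032, and with total reads (added after seeing the data) ADM was -0.088 and GAPDH -0.0098. HIF1A was 0.11 in the lower series, and EGLN3 -0.58 and GAPDH -0.048 in the upper. CA9 was 0.31 without the 3 libraries apart, and ADM -0.063 without the 3 of low totals. With each library left out CA9 ran from -0.69 to 0.046, CA12 from -0.25 to 0.25, LDHA from -0.40 to 0.35 and GAPDH from -0.048 to 0.11. The cause was not tested.

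The count of 9 passing pairs, taken over all 45, became 0 within vehicle, OCA or the lower series, 3 in the upper series, 3 without the 3 libraries apart, 1 without the 3 of low totals, 2 on residuals from total reads (added after seeing the data) and 3 to 10 with each library left out. It became 4 without vehicle replicate 1, 3 without vehicle replicates 3 or 5, 4 without OCA replicate 1, 5 without OCA replicate 3 and 3 without OCA replicate 4. A pair that passed in such a setting need not be 1 of the 9, and EGLN3 with PGK1 did not pass in the upper series. The settings other than the residuals use fewer tumours. The 5 resolved steps in the order of levels became 3 in vehicle and 0 in OCA tumours. With 6 OCA tumours those 5 steps alone could not have passed the adjusted threshold, so that 0 says nothing of the order there.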

Other observations

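Vehicle tumours were more variable than OCA tumours in most of these transcripts. The coefficient of variation of CPM was larger in the vehicle group for 9 of the 10, among them PDK1 (37.8% against 9.46%), CA12 (75.2% against 29.7%) and ADM (61.9% against 35.3%). GAPDH was the exception, at 8.16% against 17.7%. Over the 14710 transcripts averaging 10 CPM or more, 61.3% had the larger value in vehicle. Without the 3 vehicle libraries under 40000000 reads these figures were 8 of 10 and 53.5%. Without vehicle replicates 1 and 4 and OCA replicate 2 they were 6 of 10 and 62.3%, and within the lower label series 7 of 10 and 55.6%. LDHA, at a mean of 2.77 CPM, is among the 10 but not among the transcripts averaging 10 CPM or more. The difference in spread was not tested.

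Relative to the GAPDH transcript of the same library, as in a quantitative PCR with that reference, OCA minus vehicle was 0.54 on the log2 scale for PDK1 (exact permutation test, p = 0.0536), 0.50 for SLC2A1 (exact p = 0.121) and 0.86 for EGLN3 (exact p = 0.284), with no adjustment. None of the 9 ratios to GAPDH had an exact p under 0.05.

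Of the 14709 transcripts compared, those with r of at least 0.7 with a member numbered 407 (2.77%) for PGK1, 319 (2.17%) for EGLN3 and 232 (1.58%) each for SLC2A1 and PDK1. They numbered 212 (1.44%) for ADM, 177 (1.20%) for CA12, 153 (1.04%) for CA9, 117 (0.795%) for GAPDH and 85 (0.578%, of 14710) for LDHA. HIF1A had 601 (4.09%), the most of the 10 members. Over all pairs of transcripts averaging 10 CPM or more the share was 1.2%.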
